A study of Mus musculus with 18 samples.

Results

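The general macrophage markers described here are 9 genes that mark macrophages across tissues: Adgre1, Cd68, Csf1r, Fcgr1, Mertk, C1qa, C1qb, C1qc and Ms4a7. They were chosen by symbol, and all 9 were found among the 21910 genes common to both deposited gene tables (22137 genes in the table of LFD and HFD, 24778 in the table of shCon and shYap). RNA was sequenced from liver tumour tissue of mice that had received MC38 cells, a mouse colon carcinoma line, by injection into the spleen. The LFD group (n = 5) came from wild-type mice fed a low-fat diet and the HFD group (n = 5) from wild-type mice fed a high-fat diet. The shCon (n = 4) and shYap (n = 4) groups both came from wild-type mice fed a high-fat diet and carry a control or a Yap hairpin as the genotype of the sample. All 4 groups therefore share the tumour line and the route of injection, and 3 of them share the high-fat diet. The labels used here give no age or sex of the mice, no hairpin sequence or clone, and do not say whether each library is a different mouse, so p-values measure only the spread between these samples.

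Macrophages are phagocytes that arise from blood monocytes or, as Kupffer cells of the liver, from precursors seeded before birth. Csf1r, a receptor tyrosine kinase, binds Csf1 and Il34, and this signal keeps most macrophages alive. Adgre1 encodes the surface receptor F4/80 and Cd68 a heavily glycosylated protein of late endosomes and lysosomes. Fcgr1 binds IgG with high affinity, and Mertk is a receptor that recognises dying cells through the bridging proteins Gas6 and protein S. C1qa, C1qb and C1qc encode the 3 chains of C1q, which joins the proteases C1r and C1s to start the classical complement pathway. Ms4a7 belongs to a family of membrane proteins with several transmembrane segments and is used as a marker of macrophages and microglia.

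The C1q genes lie side by side on mouse chromosome 4, within 18675 bases (GRCm38, chr4:136880129-136898803, GENCODE M21) on the minus strand and in the order C1qb, C1qc, C1qa along the plus strand. The other 6 members lie each on a chromosome of its own. The position of Csf1r is given with its values, and the others are Adgre1 at chr17:57358691-57483527, Cd68 at chr11:69664213-69666153, Fcgr1 at chr3:96282909-96293969, Mertk at chr2:128698956-128802894 and Ms4a7 at chr19:11321039-11336146. Mertk overlaps the antisense gene Gm14011, which had 0 to 2 counts per library in shCon and shYap.

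RefSeq (GRCm38.p6) gave upstream sequence for 6 of the 9 members, in 7 windows of 250 bases ending at a transcript start. The windows were searched on both strands for GAGGAA, a core of the binding site of PU.1, the myeloid transcription factor encoded by Spi1. The letters stood in 4 of the 7 windows, those of C1qb, C1qc, Cd68 and Fcgr1 (151 of the 250 bases of the C1qc window lie in an annotated exon), against 7639 of 32851 windows of the same length genome-wide (23.3%). The letters were absent from the windows of Mertk and Ms4a7, and no window was given for Adgre1, C1qa or Csf1r. A match is a description of the letters only. The windows of C1qb, a member of the complement cluster, and of Cd68 and Fcgr1, the 2 members whose libraries did not overlap between shCon and shYap, are printed 5′ to 3′ on the gene's strand (minus for all 3), with the match in capitals. In Fcgr1 the match lies on the opposite strand and reads TTCCTC. The match starts 30 bases before the transcript start in C1qb (chr4:136886201-136886450), 225 bases before it in Cd68 (chr11:69666171-69666420) and 55 bases before it in Fcgr1 (chr3:96293970-96294219).
C1qb: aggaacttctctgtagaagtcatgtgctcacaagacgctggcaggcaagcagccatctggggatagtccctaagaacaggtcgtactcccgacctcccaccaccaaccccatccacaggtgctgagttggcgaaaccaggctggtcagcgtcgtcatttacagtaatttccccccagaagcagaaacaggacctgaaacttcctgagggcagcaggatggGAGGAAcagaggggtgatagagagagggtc
Cd68: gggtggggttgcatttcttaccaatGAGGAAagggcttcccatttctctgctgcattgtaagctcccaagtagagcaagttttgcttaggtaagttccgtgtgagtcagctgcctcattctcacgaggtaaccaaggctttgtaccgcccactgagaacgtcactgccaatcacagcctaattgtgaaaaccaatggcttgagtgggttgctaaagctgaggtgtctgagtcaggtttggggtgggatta
Fcgr1: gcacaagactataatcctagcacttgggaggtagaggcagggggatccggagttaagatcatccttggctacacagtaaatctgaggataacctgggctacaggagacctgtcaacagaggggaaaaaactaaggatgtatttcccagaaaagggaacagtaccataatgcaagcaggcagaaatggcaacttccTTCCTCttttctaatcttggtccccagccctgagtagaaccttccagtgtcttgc

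Total estimated counts were 17766207 to 18474191 per library in the table of LFD and HFD and 17207214 to 21309950 in that of shCon and shYap, and members had 269 to 17689 counts in a library, so counting error was small beside the spread between libraries. Yap1, the hairpin's named target, was at 78.1, 82.4, 73.8 and 77.4 CPM (counts scaled to a common library size) in shCon. The libraries labelled shYap held 71.6, 80.03, 81.4 and 70.5 CPM of it (log2 fold change -0.04 ± 0.11 SE, edgeR adjusted p = 0.937), so the label is not borne out by Yap1 RNA in the tissue. Which cells of the bulk tissue gave this Yap1 RNA was not tested. Xist, which female cells make from their silenced X chromosome, was at 72.9 to 135 CPM in LFD and 0.0505 to 0.293 CPM in HFD, so diet and the sex of the RNA cannot be told apart. The 22 hepatocyte genes summed to 15284 to 140760 CPM in LFD, 1248 to 8416 in HFD, 14978 to 58486 in shCon and 19288 to 97006 in shYap. HFD replicates 1 and 2, and replicates 3 and 4, were closer to each other (chi-square over degrees of freedom 6.116 and 5.09) than the other HFD pairs (10.99 to 26.86). In bulk tissue, fewer macrophages and less RNA per macrophage cannot be told apart.

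Per length, the C1q chains were the most abundant markers and Mertk and Ms4a7 the least. Length here is the union of all annotated exons of a gene, so the order depends on it. Which transcripts were present was not tested. In LFD the mean level fell in the order C1qa (567 ± 152 CPM per kb of exon, SD, n = 5), C1qb (478 ± 132), C1qc (224 ± 64.9), Cd68 (104 ± 35.3), Csf1r (67.3 ± 17.9), Adgre1 (28.0 ± 4.54), Fcgr1 (27.7 ± 7.55), Mertk (11.5 ± 4.7) and Ms4a7 (8.78 ± 2.26). The order of the means in HFD was the same. Of the 8 neighbouring pairs in the order, the library ranges were apart for 1 in LFD, Csf1r above Adgre1, and for 5 in HFD, where C1qa with C1qb, Adgre1 with Fcgr1, and Mertk with Ms4a7 overlapped. In shCon and shYap C1qb came first, at 710 and 572 CPM per kb, ahead of C1qa at 498 and 385 CPM per kb. Ranges were apart for 6 of 8 neighbours in shCon, all but Fcgr1 with Adgre1 and Ms4a7 with Mertk, and for 4 of 8 in shYap. The tables were quantified separately, so the difference in order between them is a description without a test.

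**Figure D1:**
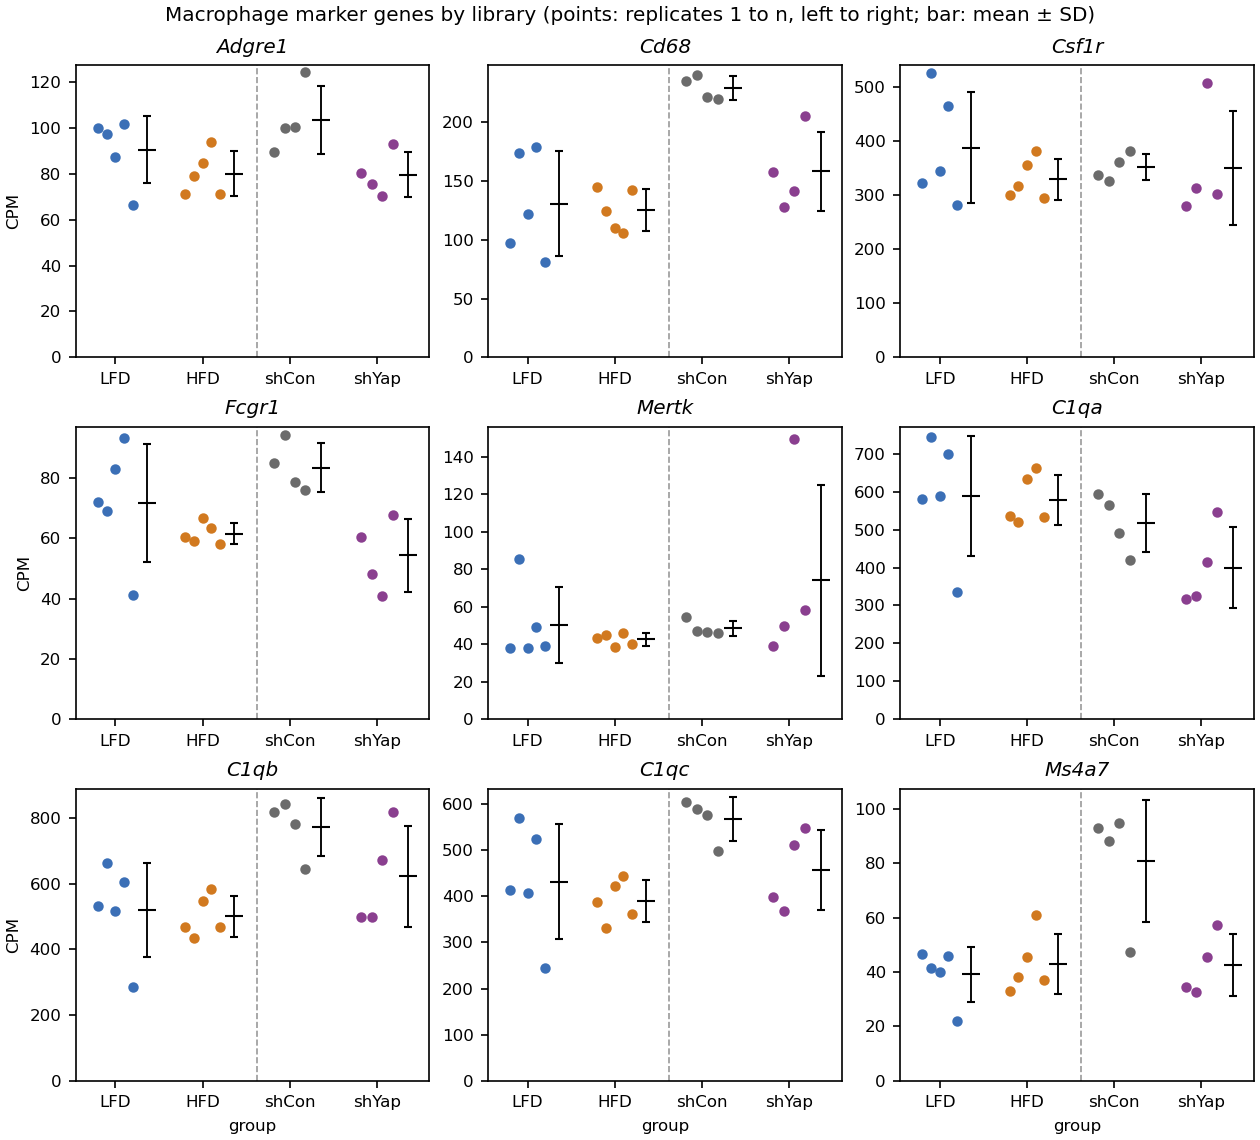
Level of each marker gene in CPM (vertical axis, from 0) in every library of the 4 groups, with points for replicates from left to right and the mean ± SD as a bar; the dashed line separates the tables. LFD and HFD overlap for all 9 genes, and shCon and shYap are apart for Cd68 and Fcgr1; 1 shYap library stands at 149.7 CPM for Mertk and 507 CPM for Csf1r.

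The first comparison asks whether the tumours of mice on the high-fat diet held another level of macrophage RNA than those of mice on the low-fat diet. None of the 9 markers passed edgeR's quasi-likelihood test (0 of 9 at an adjusted p under 0.05, while 41.1% of the 16340 genes tested passed, 19.4% higher and 21.6% lower), 0 of 9 had an unadjusted p under 0.05 (50% of all genes), and LFD and HFD libraries overlapped for every member (30.6% of all genes did not overlap, 15.8% with HFD higher and 14.8% with HFD lower). DESeq2 likewise called 0 of 9 members, against 44.7% of genes. The median log2 fold change was -0.15 over the 9 members and 0 over all genes, and 1 of 9 was positive. A missed threshold does not show equal levels: the 95% intervals reached from -0.74 for Mertk to 0.64 for Ms4a7.

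Csf1r (chr18:61100598-61132149, GRCm38) overlaps Hmgxb3 on the opposite strand. The strand of the reads is not stated, so reads from the shared stretch cannot be told apart by strand. Whether exons of both genes lie in that stretch was not tested. Hmgxb3 had 381 to 615 estimated counts per library in LFD and 907 to 1045 in HFD. How far its reads enter the Csf1r values was not tested. Csf1r stood at 323, 527, 345, 466 and 283 CPM in LFD and at 300.4, 317, 357, 382 and 294 CPM in HFD. The HFD libraries lay inside the LFD range, which was wider. The fold change was -0.24 ± 0.17 on the log2 scale (adjusted p = 0.293, 95% interval -0.63 to 0.16), and -0.1 without LFD replicate 2. Its ligands differed from each other. Il34 was at 16.4, 34.3, 19.0, 25.1 and 24.4 CPM in LFD and at 58.9, 53.6, 71.6, 60.9 and 55.4 CPM in HFD. Every HFD library was above every LFD library, and Il34 rose by 1.33 ± 0.18 (adjusted p = 0.000624). Csf1, the more abundant ligand, was at 313 ± 129 CPM (SD, n = 5) in LFD and 320 ± 17.6 CPM (n = 5) in HFD (0.03 ± 0.24, adjusted p = 0.929). Spi1 was at 71.3 ± 19.6 and 54.6 ± 3.75 CPM (-0.39 ± 0.17, adjusted p = 0.0958). Of the 9 tested genes of the list of Csf1r ligands, related receptors and myeloid factors, 1 rose and 2 fell. Over all genes tested, 19.4% were called higher and 21.6% lower. Cebpa, a factor of myeloid cells and also of hepatocytes, fell by 2.7. Irf8, a factor of monocyte and dendritic cell development, fell by 0.66.

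Adgre1 was at 100.1, 97.2, 87.4, 102 and 66.2 CPM in LFD and at 71.3, 79.2, 84.8, 94.0 and 71.2 CPM in HFD. LFD replicate 5 was the lowest of all 10 and the other LFD libraries lay at the upper end of the HFD range or above it. The fold change was -0.18 ± 0.13 (adjusted p = 0.293, interval -0.47 to 0.12). Cd68 was at 97.4, 174, 122, 179 and 81.2 CPM in LFD and at 145, 125, 109.8, 106 and 142 CPM in HFD. The LFD libraries spanned the whole HFD range on both sides, with a fold change of -0.06 ± 0.22 (adjusted p = 0.848). While 21.6% of all genes were called lower, the list of adhesion receptors, Ms4a genes and lysosomal membrane proteins held 4 falls among 11 tested genes. These were Adgre4, a relative of Adgre1 (-2.62), Adgre5, which encodes CD97 (-0.46), Lamp2, a lysosomal membrane protein (-0.68), and Ms4a4c (-0.66).

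Fcgr1 was at 72.0, 69.2, 82.9, 93.2 and 41.2 CPM in LFD and at 60.5, 59.2, 66.8, 63.4 and 58.1 CPM in HFD. Replicate 5 was the only LFD library below the HFD libraries, and the other 4 LFD libraries lay above all 5. Over all libraries the fold change was -0.22 ± 0.18 (adjusted p = 0.349). Without LFD replicate 5 it was -0.344 with an adjusted p of 0.0123, so that 1 of 9 members passed, where 43.7% of all genes did. Fcer1g, the signalling chain that Fcgr1 pairs with, was at 153 ± 45.8 CPM in LFD and 111 ± 9.81 CPM in HFD (-0.46 ± 0.20, adjusted p = 0.0939). Of the 7 Fc receptor genes and partners, 0 rose and 2 fell, the neonatal IgG receptor Fcgrt (-0.57) and the kinase Syk (-0.32). Among all genes, 19.4% were called higher and 21.6% lower.

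Mertk was at 38.2, 85.6, 38.2, 49.2 and 39.3 CPM in LFD and at 43.5, 45, 38.3, 45.9 and 40.0 CPM in HFD. LFD replicate 2 alone stood far above the other 9 libraries. With it the fold change was -0.24 ± 0.22 (adjusted p = 0.411), and without it 0.0465 (adjusted p = 0.737). Axl, a related receptor, rose from 437 ± 98.3 CPM to 693 ± 47.9 CPM (0.67 ± 0.14, adjusted p = 0.00522). The bridging proteins Gas6 and Pros1 had fold changes of -0.42 ± 0.22 (adjusted p = 0.144) and -0.75 ± 0.29 (adjusted p = 0.0589). In the list of Mertk relatives and genes of dead-cell uptake, 3 of 13 tested genes rose, Axl and the integrin chains Itgb3 (1.74) and Itgav (0.40), and 2 fell. Those that fell were Timd4 (-3.01), a phosphatidylserine receptor of Kupffer cells, and Stab2 (-2.37), a scavenger receptor of liver sinusoids. The shares over all genes were 19.4% called higher and 21.6% called lower.

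The C1q chains had nearly the same pattern across libraries. C1qa was at 581, 744, 588, 701 and 336 CPM in LFD and at 537, 519.5, 633, 664 and 533 CPM in HFD. C1qb was at 531, 663, 516, 604 and 285 CPM in LFD and at 468, 435, 547, 585 and 468 CPM in HFD. C1qc was at 414, 569, 407, 524 and 246 CPM in LFD and at 387, 331, 422, 443 and 362 CPM in HFD. In all 3 genes LFD replicate 5 was lowest of the 10, LFD replicate 2 was highest, and HFD replicate 4 was the highest of its group. The fold changes were -0.03 ± 0.19 for C1qa (adjusted p = 0.911), -0.05 ± 0.20 for C1qb (adjusted p = 0.851) and -0.15 ± 0.20 for C1qc (adjusted p = 0.571), and in limma voom C1qa and C1qb turned to 0.022 and 0.00172. Without LFD replicate 2 they were 0.0673, 0.0504 and -0.0299, in the same order, and without LFD replicate 5 they were -0.158, -0.188 and -0.277.

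From the list of the classical pathway and C1q binding proteins, 11 other genes were tested. Of these, 0 rose, 6 fell and 5 did not pass, where 21.6% of all genes were called lower. Their median was -0.61. Whether they differ from the C1q chains was not tested. C4b (-2.85), the regulator Serping1 (-2.73), C1rl (-2.0) and C3 (-2.51) are made largely by hepatocytes. The proteases that bind C1q directly were at -0.11 ± 0.22 for C1ra (adjusted p = 0.729) and -0.61 ± 0.20 for C1s1 (adjusted p = 0.0335), which fell from 452 ± 133 to 296 ± 39.9 CPM. The hepatocyte list fell beside them, with 21 of 22 genes called lower and a median of -4.62. The part of liver RNA in these falls was not tested.

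Ms4a7 was at 46.6, 41.3, 39.9, 45.8 and 21.9 CPM in LFD and at 33.0, 38.3, 45.4, 60.9 and 37.2 CPM in HFD. LFD replicate 5 was again lowest and HFD replicate 4 highest. It was the member with a positive fold change, 0.13 ± 0.22 (adjusted p = 0.656), which was 0.00428 without LFD replicate 5 and -0.0203 without HFD replicate 4. LFD replicate 5 was the lowest library of its group for 8 of the 9 members, all but Mertk, and it also had the highest hepatocyte sum (140760 CPM) and the lowest sum of 10 pan-leukocyte genes (927.6 CPM, against up to 1754 in LFD). How far these account for the low members was not tested.

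Further macrophage genes were likewise mostly not called. Of 24 tested, 1 rose, the lysosomal protease Ctsd (0.39), and 3 fell, the lectin Fcna (-1.23), Aif1, which encodes IBA1 (-0.76), and Mpeg1, a pore-forming protein of phagocytes (-0.47). The median was -0.13, and over all genes 19.4% were called higher and 21.6% lower. Of 9 Kupffer cell markers, 5 fell and 4 did not pass, where 21.6% of all genes were called lower. Among those that fell were Il18bp, which binds interleukin 18 (-1.17), Slc40a1, the iron exporter ferroportin (-2.34), Timd4 (-3.01) and the lectin Clec4f (-2.71). The 9 markers summed to 206.1 to 452.8 CPM in LFD and 88.07 to 166.9 CPM in HFD. None was at 0 in all libraries of a group. These sums include Cdh5, a gene also in the endothelial list. Its level was 40.2 ± 12.4 CPM (SD) in LFD and 46 ± 4.31 CPM in HFD. Of 10 monocyte genes, 2 rose and 3 fell. Of 10 pan-leukocyte genes, 0 rose and 6 fell, with Ptprc (CD45) falling by 1.07 ± 0.23 (adjusted p = 0.00485). Of 11 T cell genes, 10 fell (median -1.67), and their sum was 39.22 to 142.3 CPM in LFD and 15.45 to 52.28 CPM in HFD.

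Fitting the hepatocyte level as a covariate lowered every member. Mean log2 CPM of the 22 hepatocyte genes was 9.83 ± 1.16 in LFD (n = 5) and 5.62 ± 1.31 in HFD (n = 5), and these did not overlap, so the covariate takes most of its range from the groups themselves. With it Csf1r had a fold change of -0.968 (adjusted p = 0.0538), C1qc of -0.963 and C1qb of -0.866, and Ms4a7 turned to -0.668. None of the 9 passed, where 648 genes did in place of 6710.

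**Figure D2:**
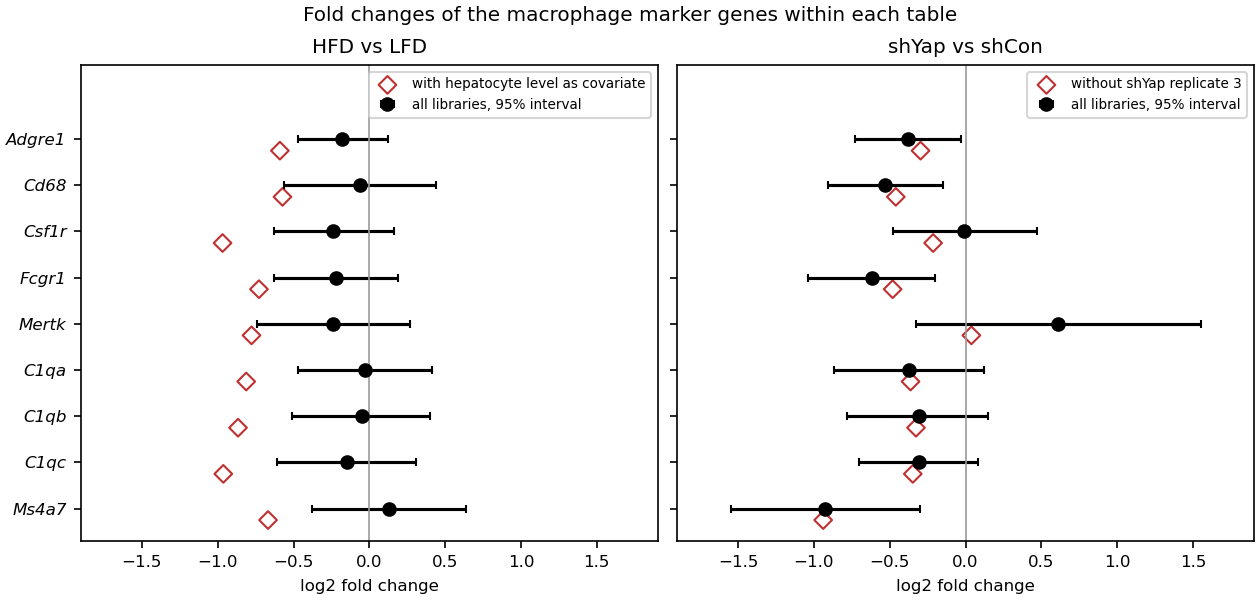
Log2 fold change of each marker (horizontal axis) in HFD against LFD (left) and in shYap against shCon (right); black points and bars are edgeR estimates with 95% intervals over all libraries, and red diamonds show the same fit with the hepatocyte level as a covariate (left) or without shYap replicate 3 (right). All 9 intervals on the left include 0, and on the right those of Adgre1, Cd68, Fcgr1 and Ms4a7 lie below 0 before adjustment; Mertk moves from 0.61 to 0.0382 without that library.

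The second comparison sets the libraries labelled shYap against shCon, both from mice on the high-fat diet. Again 0 of 9 members passed edgeR's test after adjustment, as did 0% of the 16571 genes tested. Before adjustment 4 of 9 had a p under 0.05, Adgre1, Cd68, Fcgr1 and Ms4a7, all lower, against 10.9% of all genes in either direction (1804 genes). For 2 of 9, Cd68 and Fcgr1, every shYap library was below every shCon library; over all genes the groups were apart for 6.58%, with shYap lower in 3.95% and higher in 2.63%. DESeq2 called 410 of the genes it tested (2.52%) and 1 of 9 members, Ms4a7 with an adjusted p of 0.0419, and limma voom called 0 genes. The median log2 fold change was -0.37 over the members and 0.03 over all genes, with 1 of 9 positive.

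Cd68 was at 235, 240.3, 221 and 219 CPM in shCon and at 158, 128, 142 and 205 CPM in shYap. The groups were apart, with shYap replicate 4 closest to shCon. The fold change was -0.53 ± 0.16 (adjusted p = 0.26, interval -0.91 to -0.15). Fcgr1 was at 85.0, 94.3, 78.8 and 76.0 CPM in shCon and at 60.6, 48.3, 40.8 and 67.7 CPM in shYap. These groups were apart too, and the fold change was -0.62 ± 0.17 (adjusted p = 0.224, interval -1.04 to -0.2). Fcer1g was at 307 ± 65.2 CPM in shCon and 206 ± 64.2 CPM in shYap (-0.58 ± 0.23, adjusted p = 0.411).

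Adgre1 was at 89.3, 99.9, 100.5 and 124 CPM in shCon and at 80.2, 75.4, 70.2 and 93.1 CPM in shYap. The groups overlapped only through shYap replicate 4, which was above shCon replicate 1. The fold change was -0.38 ± 0.14 (adjusted p = 0.379, interval -0.73 to -0.03). Ms4a7 was at 93.0, 88.0, 94.9 and 47.3 CPM in shCon and at 34.4, 32.7, 45.4 and 57.3 CPM in shYap. Here shCon replicate 4 was low and lay inside the shYap range, while the other 3 shCon libraries were above all shYap libraries. The fold change of Ms4a7 was the largest in size among the members, -0.93 ± 0.26 (adjusted p = 0.227, interval -1.55 to -0.3), and it was -1.12 (adjusted p = 0.0594) without shCon replicate 4.

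The C1q chains were lower on average in shYap but overlapped between the groups. C1qa was at 594, 564, 493 and 419.9 CPM in shCon and at 316, 324, 413 and 547 CPM in shYap. C1qb was at 817, 844, 782 and 644 CPM in shCon and at 498, 499, 673 and 819 CPM in shYap. C1qc was at 604, 589, 577 and 497 CPM in shCon and at 398, 368, 512 and 547 CPM in shYap. In each chain shCon replicate 4 was the lowest of shCon and shYap replicate 4 the highest of shYap. The fold changes were -0.37 ± 0.20 for C1qa (adjusted p = 0.57), -0.31 ± 0.19 for C1qb (adjusted p = 0.621) and -0.31 ± 0.16 for C1qc (adjusted p = 0.54). Without shYap replicate 4 those of C1qa and C1qb were -0.559 and -0.47. The proteases C1ra and C1s1 were at 0.37 (adjusted p = 0.719) and 0.15 (adjusted p = 0.89).

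Csf1r and Mertk were set apart by 1 library. Csf1r was at 339, 327, 362 and 382 CPM in shCon and at 279.5, 315, 507 and 303 CPM in shYap. Mertk was at 54.3, 47.0, 46.7 and 46.1 CPM in shCon and at 39.2, 49.6, 149.7 and 58.3 CPM in shYap. For both genes shYap replicate 3 was far above the other 7 libraries. The other 3 shYap libraries were below every shCon library for Csf1r, while for Mertk they lay below, inside and above the shCon range. The fold change of Csf1r was -0.01 ± 0.19 (adjusted p = 0.995) and -0.214 (adjusted p = 0.43) without that library. That of Mertk was 0.61 ± 0.38 (adjusted p = 0.639) and 0.0382 (adjusted p = 0.924) without it. The same library was the lowest of shYap for Adgre1 and Fcgr1 and had the highest sum of 10 monocyte genes, 1856 CPM against a lowest value of 613.3 in shYap. Hmgxb3, which overlaps Csf1r, was at 698 counts there, inside the range of the other shYap libraries (541 to 936).

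Several other genes stood high in shYap replicate 3 and were picked after their values were seen. Over shYap replicates 1 to 4, Fcgr2b, an inhibitory IgG receptor, was at 82.2, 105, 324 and 115 CPM. Fcgr3, a low-affinity IgG receptor, was at 98.9, 113, 296 and 140.0 CPM. F13a1, a transglutaminase of some monocytes and macrophages, was at 3.95, 36.4, 178 and 41.2 CPM, and Vcan was at 398, 456, 1271 and 507 CPM. Fcgr1, the high-affinity receptor, was lowest in that library. LFD replicate 2, the library highest for Mertk in LFD, was at 382 CPM for F13a1, 203 CPM for Fcgr2b and 230.3 CPM for Fcgr3. The LFD means, which include it, were 138 ± 156, 136 ± 47.4 and 140 ± 61.7 CPM (SD). That library was the highest of LFD for 5 of the 9 members, the C1q chains among them. By contrast, shYap replicate 3 was the highest of shYap for 2, Csf1r and Mertk.

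Among the partner genes, Il34 was at 35.8, 31.3, 29.9 and 29.7 CPM in shCon and at 62.5, 51.9, 44.1 and 34.6 CPM in shYap. All but shYap replicate 4 were above every shCon library (0.61 ± 0.18, adjusted p = 0.27). Csf1 was at -0.21 ± 0.21 (adjusted p = 0.789), Spi1 at -0.36 ± 0.14 (adjusted p = 0.402), Axl at 0.14 ± 0.18 (adjusted p = 0.847), Gas6 at -0.16 (adjusted p = 0.9) and Pros1 at 0.18 (adjusted p = 0.896). In edgeR 0 genes of these lists passed after adjustment. Of the 24 further macrophage genes, 5 had a positive fold change and 12 an unadjusted p under 0.05, with a median of -0.31. Over all genes, 10.9% had such an unadjusted p. Of the 12 in the list, Cd14 (1.21) and Cd163 (1.12) were higher in shYap and the rest were lower. Cx3cr1, the fractalkine receptor, and Siglec1, a sialic acid receptor, had the smallest p of that list and were chosen for it: Cx3cr1 was at 179 ± 22 CPM in shCon and 95.4 ± 21.4 in shYap (n = 4 each), and Siglec1 at 141 ± 9.7 and 79.5 ± 17.5 CPM.

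Lists of other cell types also held 0 genes past the adjusted threshold in edgeR. Among all genes, 10.9% had an unadjusted p under 0.05. The 10 pan-leukocyte genes had a median of -0.45, with 9 of 10 at an unadjusted p under 0.05, and summed to 1520 to 1665 CPM in shCon and 1288 to 1416 CPM in shYap. Ptprc was at -0.44 ± 0.15 (adjusted p = 0.335). The 11 T cell genes had a median of -1.81, and their sum was 47.65 to 115.2 CPM in shCon and 21.03 to 35.5 CPM in shYap. The dendritic cell list had a median of -0.66, with 6 of 10 genes at an unadjusted p under 0.05, and the NK cell list a median of -1.11, with 3 of 5. The Kupffer list had a median of 0.48 and sums of 209.1 to 453.6 CPM in shCon and 183.2 to 575.4 CPM in shYap. Of these sums Cdh5 gave 72.8 ± 3.39 CPM (mean ± SD) in shCon and 81 ± 17 CPM in shYap. The hepatocyte list had a median of 0.52, and 0 genes of it or of the Kupffer list had an unadjusted p under 0.05. The part of these cells in the members' values was not tested.

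Across libraries, after each group's mean was taken out, the members varied together in the table of LFD and HFD and less so in that of shCon and shYap. The 3 pairs of C1q chains had Pearson correlations of log2 CPM of 0.98 to 1.0 over the 10 libraries and of 0.93 to 0.97 over the 8. All 36 pairs of members were positive in the first table (0.12 to 1.0), and 26 of 36 were in the second (-0.83 to 0.97). In the second, Csf1r with Fcgr1 was lowest at -0.83 and Csf1r with Mertk was at 0.93, and shYap replicate 3 was the extreme shYap library for these 3 genes. Libraries share depth and tissue makeup across genes, so these are descriptions. Outside the members, the genes whose profile was most like the members' mean in both tables were Ece2 (lower of both correlations 0.946), Clec4a1 (0.945), Hspa12b (0.944), Rpl15 (0.927), Ucp2 (0.917) and Bcl2l11 (0.913). In the table of shCon and shYap that mean followed chiefly the C1q chains (0.928 to 0.993) and not Adgre1 (-0.071), Fcgr1 (0.16) or Csf1r (0.355), so likeness to it is not likeness to every marker.

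**Figure D3:**
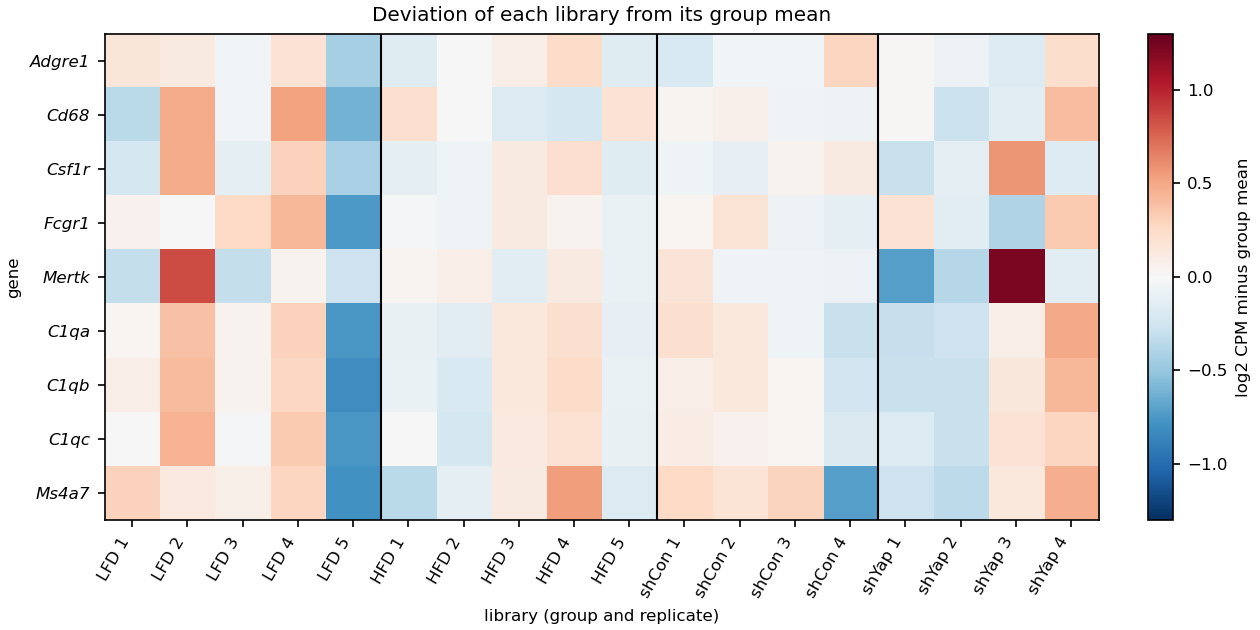
Log2 CPM of each marker (rows) minus its group mean in every library (columns, grouped by LFD, HFD, shCon and shYap), from blue below to red above the mean. LFD replicate 5 is low in 8 of 9 genes as its group's lowest library, and shYap replicate 3 stands out for Mertk and Csf1r.

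Ratios between genes within a library do not depend on the library size. Of 9 ratios tested per comparison with two-sided exact permutation tests, 0 passed in either comparison after adjustment over the 9. The smallest p that 5 against 5 libraries allow is 0.00794, and that of 4 against 4 is 0.0286, so with 4 against 4 no ratio can pass after adjustment unless at least 6 of the 9 reach that smallest p. Adgre1 over Ptprc was 0.541 to 0.882 in LFD and 1.07 to 1.42 in HFD, without overlap (log2 difference 0.87, exact p = 0.00794, adjusted 0.0714). Ptprc is not a member, and its own log2 fold change was -1.07, against -0.18 for Adgre1. It fell most among the 10 pan-leukocyte genes, whose median was -0.48. The ratio to other leukocyte genes was not tested. C1qc over C1qa was 0.692 to 0.765 in LFD and 0.638 to 0.719 in HFD (-0.11, exact p = 0.0238, adjusted 0.0714). Ms4a7 over Adgre1 was 0.33 to 0.466 in LFD and 0.463 to 0.648 in HFD (0.32, exact p = 0.0159, adjusted 0.0714). These 3 reached an adjusted p of 0.0476 without HFD replicate 1, and no ratio passed in any other alternative. Over the 11 alternatives the adjusted p of each of the 3 went up to 0.143. HFD replicate 1 was the HFD library inside the LFD range for C1qc over C1qa (0.719) and Ms4a7 over Adgre1 (0.463).

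Between shCon and shYap every adjusted p of a ratio was 0.514 or more. Mertk over Adgre1 was 0.37 to 0.609 in shCon and 0.489, 0.658, 2.13 and 0.626 in shYap replicates 1 to 4 (0.78, exact p = 0.0571, adjusted 0.514). Csf1r over Adgre1 was 3.07 to 3.79 in shCon and 3.25 to 7.23 in shYap, the highest again in replicate 3. Ms4a7 over Adgre1 was 0.38 to 1.04 in shCon and 0.429 to 0.648 in shYap. C1qb over C1qa was 1.38 to 1.59 and 1.5 to 1.63.

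**Figure D4:**
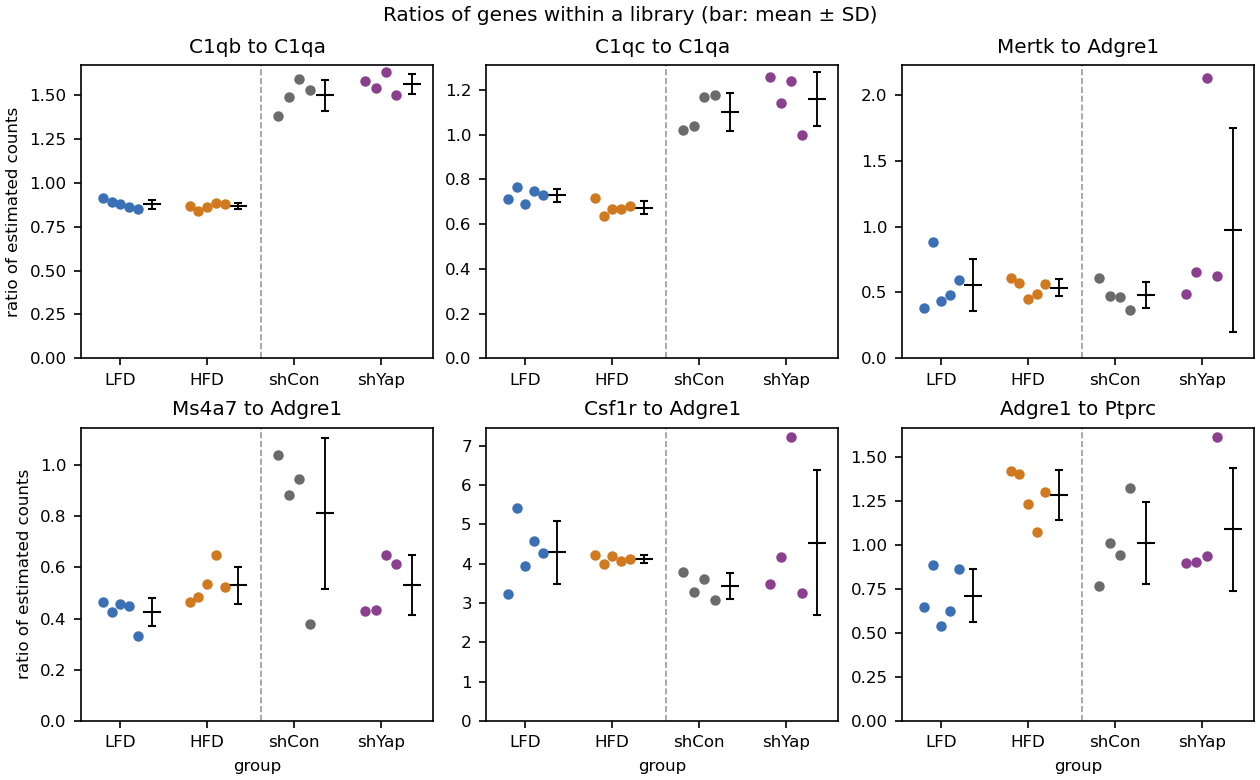
Ratio of the estimated counts of a pair of genes within each library (vertical axis, from 0) for 6 of the 9 ratios in the 4 groups, with points for libraries and the mean ± SD as a bar; the dashed line separates the tables. Adgre1 over Ptprc is at most 0.882 in LFD and at least 1.07 in HFD, and C1qb over C1qa is at most 0.914 in the left table and at least 1.38 in the right one.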

How the data were processed

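RNA of 18 tumour libraries was deposited as 2 tables of estimated counts, which the authors made by expectation-maximisation in Partek, as the tables' names say. Per the submitters' processing notes, the tools were Partek, DESeq2 and STAR 2.7.3a and the builds GRCm38 and mm10, with neither role nor order given. The annotation and the library strand are not given in the sources used here. Of the deposited values 59.7% and 61.8% were whole, and the smallest mean of a gene in the table of LFD and HFD was 1, so low genes had been removed before deposit. Replicates 3 and 4 of shYap, so named by their titles and here, carry the numbers 4 and 5 in their table.

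Estimated counts were rounded and each table was fitted alone in R 4.3.3 with edgeR 4.0.16, using its filterByExpr, TMM scaling and the robust quasi-likelihood F test, with a Benjamini-Hochberg adjusted p under 0.05 over all genes tested as the threshold. CPM values use TMM-scaled library sizes. Levels per kb use the union of GENCODE M21 exons. Profiles for correlations used a prior count of 2. Ratios used counts plus 0.5 (5 as an alternative) and two-sided exact permutation tests adjusted over 9. Intervals are 95% intervals from the t distribution with 8 or 6 degrees of freedom.

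Named genes are all members, up to 4 called genes of each other list by p, the direct partners Csf1, Il34, C1ra, C1s1, Gas6, Pros1, Fcer1g, Spi1, Ptprc and Axl, and the 6 genes most like the members. Exceptions are stated where they are named, and lists of other cell types are given mostly by counts. The members and lists were chosen with earlier results of these data known. Alternatives were DESeq2 1.42.0, limma 3.58.1 (voom), RLE and upper-quartile scaling, no filter or 1 CPM, the replicate number as a block, the hepatocyte level as a covariate, the close HFD pairs summed, and each library left out. On simulated counts in which 200 genes were changed, 54.1% of 2-fold and 90.9% of 4-fold changes were called for HFD against LFD (16218 genes), and 32.3% and 85.9% for shYap against shCon (16342 genes). Counting error alone is small at these depths, since every member had at least 269 counts per library.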

Additional observations from a re-analysis of the deposited data

Results flagged for a closer look

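In 112 groups of 4 or 5 libraries, 1 library was checked for standing apart from the others of its group, which chance gives in about 1 in 20 groups. All flagged groups are given here, and their number is near that share. Csf1r in shYap was at 507 CPM in replicate 3, and the next library was at 315 CPM. The ratio of Mertk to Adgre1 was 2.13 in the same library, against 0.658 in the next. Mertk in LFD was at 85.6 CPM in replicate 2, with the next at 49.2 CPM, and Mertk in shCon was at 54.3 CPM in replicate 1, with the next at 47.0 CPM.

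Ms4a7 in LFD was at 21.9 CPM in replicate 5, below the next at 39.9 CPM. Ms4a7 in shCon was at 47.3 CPM in replicate 4, below the next at 88.0 CPM. The ratio of Adgre1 to Ptprc in shYap was 1.61 in replicate 4, above the next at 0.937.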

How the results depend on the processing

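In HFD against LFD, the 6710 genes called became 648 with the hepatocyte level as a covariate, 4233 with the close HFD pairs summed, and 5523 to 7253 with 1 library left out. Members called were 0 to 1 with 1 library left out, the 1 being Fcgr1 without LFD replicate 5 (adjusted p 0.0123 to 0.642 over 19 alternatives). Log2 fold changes that changed sign were C1qa 0.022 and C1qb 0.00172 in limma voom, Cd68 0.00104, C1qa 0.0332 and C1qb 0.0103 with upper-quartile scaling, and Ms4a7 -0.668 with the covariate. With 1 library left out, Csf1r ranged from -0.31 to -0.1, C1qc from -0.277 to -0.0299, Cd68 from -0.168 to 0.0798, Mertk from -0.321 to 0.0465, C1qa from -0.158 to 0.0673, C1qb from -0.188 to 0.0504 and Ms4a7 from -0.0203 to 0.219. The ratios to Adgre1 ranged from -0.113 to 0.188 for Mertk, -0.133 to 0.0542 for Csf1r and -0.0802 to 0.0722 for Fcgr1. Of 81 member values under other settings, 74 kept direction and call.

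In shYap against shCon, 410 genes passed in DESeq2, 1 with the covariate, and 0 to 94 with 1 library left out (94 without shCon replicate 4). Members called were 1 in DESeq2, Ms4a7, and 0 to 0 with 1 library left out. Csf1r turned to 0.0099 without a filter and to 0.0268 with the covariate. With 1 library left out, C1qa ranged from -0.559 to -0.273, C1qb from -0.47 to -0.217, Csf1r from -0.214 to 0.0902 and Mertk from 0.0382 to 0.824. Of 72 member values under other settings, 69 kept direction and call. The cause was not tested. Ratios of shYap and shCon were not run with a library left out, since 3 against 4 libraries cannot give an exact p below 0.0571.

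Same-numbered libraries did not clearly deviate together (correlations -0.5 to 0.32 and -0.05 to 0.18). No pairing by number was seen, but so few libraries cannot exclude it. With the replicate number as a block 4929 and 0 genes and 0 and 0 members were called, and C1qa in HFD turned to 0.0119.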

Other observations

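The C1q chains stood in different proportions in the 2 tables. C1qb over C1qa was 0.848 to 0.914 in LFD, 0.838 to 0.882 in HFD, 1.38 to 1.59 in shCon and 1.5 to 1.63 in shYap. C1qc over C1qa was 0.692 to 0.765, 0.638 to 0.719, 1.02 to 1.18 and 1.0 to 1.26 in the same order. HFD, shCon and shYap all came from mice on the high-fat diet, and HFD lay with LFD, the other group of its table. The tables were quantified separately and no test was made across them, so table and group cannot be told apart.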
